A study of Arabidopsis thaliana with 6 samples.

Results

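Histone genes were examined in whole seedlings of Arabidopsis thaliana, a set of 41 genes that encode the linker histone H1 and the core histones H2A, H2B, H3 and H4 in their canonical and variant forms. Members were taken by gene identifier, and a member was kept when at least 1 of the 6 libraries held 5 or more of its reads. Of the 41 genes, 37 had a row among the 11167 genes of the deposited table, and the 37 all reached this read number. The other 4 genes, AT2G18050 (a stress-inducible H1), AT5G59870 (H2A.W), AT2G38810 (H2A.Z) and AT2G28740 (H4), are not analysed here.

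All plants were 2-week-old seedlings of the *flu* 1-1 mutant in the Col-0 ecotype, held in water in darkness and then given light at 30 µE for 30 min. The 0 h group received 0 h of darkness and the 4 h group 4 h, with 3 libraries each. The *flu* mutant accumulates protochlorophyllide in the dark, and this pigment generates singlet oxygen upon illumination. Both groups carry the mutation and no wild-type library was analysed here, so darkness, the longer time in water, the time of day and pigment accumulation cannot be told apart. The labels word the treatment field as hours of exposure to light, whereas the treatment protocol gives hours of darkness followed by light for both groups, and the protocol was followed. Growth was in continuous light according to the labels and in a cycle of light and dark according to the methods of the study. The methods describe pools of whole seedlings as biological replicates for the RNA used in RT-qPCR, and their passage on the sequenced libraries gives no such detail, so p-values measure the spread between these libraries, part of which may be technical. An accession list in the study pairs this series with cycloheximide, an inhibitor of translation, while the titles, the genotype label and the name of the deposited table all give *flu*. The labels were followed, and the values given for 4 h against 0 h rest on them.

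DNA in the nucleus is wrapped around an octamer of the core histones H2A, H2B, H3 and H4, and H1 binds the linker DNA where it enters and leaves this particle. Replication-dependent (canonical) histones are made mainly while DNA is copied, from several gene copies that often encode the same protein. Variant histones take their place at particular sites: H3.3 in transcribed genes, H2A.Z near transcription starts, H2A.W in heterochromatin and CENH3 at centromeres. H2A.X, a further variant, is known for its part in the marking of DNA breaks. In plants an octamer motif in the promoter is known from many histone genes, and hexamers with an ACGT core are bound by bZIP transcription factors.

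The 250 bases before the annotated gene start are shown for 6 members, chosen because their counts differ most clearly or because they are close copies that can be compared. They are the H1 gene AT1G06760 at chr1:2077768-2078017, the H2B gene HTB11 (AT3G46030) at chr3:16914132-16914381, the adjacent H3.1 genes AT5G10390 at chr5:3269595-3269844 and AT5G10400 at chr5:3270958-3271207, and the H4 genes AT3G45930 at chr3:16883066-16883315 and AT3G46320 at chr3:17020429-17020678. All lie on the minus strand of TAIR10.1 except AT3G45930, which lies on the plus strand, and all are written 5′ to 3′ in the direction of the gene. Capitals mark the octamer CGCGGATC or the hexamer ACGTCA on either strand.
AT1G06760: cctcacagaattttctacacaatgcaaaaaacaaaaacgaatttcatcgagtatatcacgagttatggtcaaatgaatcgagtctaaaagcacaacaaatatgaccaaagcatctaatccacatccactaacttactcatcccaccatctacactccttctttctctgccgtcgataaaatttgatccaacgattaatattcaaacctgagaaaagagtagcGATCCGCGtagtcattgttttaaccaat
HTB11: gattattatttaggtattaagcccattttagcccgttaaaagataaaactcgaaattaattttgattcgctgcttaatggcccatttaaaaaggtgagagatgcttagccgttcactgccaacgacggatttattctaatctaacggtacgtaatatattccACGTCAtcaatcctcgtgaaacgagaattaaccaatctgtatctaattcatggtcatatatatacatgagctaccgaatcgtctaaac
AT5G10390: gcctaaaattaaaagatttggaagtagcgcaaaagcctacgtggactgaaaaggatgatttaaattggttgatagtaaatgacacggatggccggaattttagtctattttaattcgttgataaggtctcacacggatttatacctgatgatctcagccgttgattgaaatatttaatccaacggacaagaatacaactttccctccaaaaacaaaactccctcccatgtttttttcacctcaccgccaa
AT5G10400: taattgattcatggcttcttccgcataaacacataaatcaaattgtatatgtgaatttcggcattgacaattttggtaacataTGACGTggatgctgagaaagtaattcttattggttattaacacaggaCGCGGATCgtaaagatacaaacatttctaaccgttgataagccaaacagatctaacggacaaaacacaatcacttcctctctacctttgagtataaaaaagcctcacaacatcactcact
AT3G45930: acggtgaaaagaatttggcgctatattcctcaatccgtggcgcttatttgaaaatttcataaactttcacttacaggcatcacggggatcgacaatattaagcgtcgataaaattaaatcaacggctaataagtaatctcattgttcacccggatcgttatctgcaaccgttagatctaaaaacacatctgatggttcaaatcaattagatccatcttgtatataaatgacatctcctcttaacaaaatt
AT3G46320: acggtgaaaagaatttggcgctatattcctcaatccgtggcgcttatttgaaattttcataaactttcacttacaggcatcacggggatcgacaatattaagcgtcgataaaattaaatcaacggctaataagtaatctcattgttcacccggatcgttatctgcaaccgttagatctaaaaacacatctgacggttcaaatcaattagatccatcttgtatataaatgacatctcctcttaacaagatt

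The octamer CGCGGATC, sought on both strands, was present in this window in 10 of the 41 histone genes and in 0.135% of 27443 protein-coding genes. It lay 21 bases before the start of AT1G06760 and 113 bases before the start of AT5G10400, and was not found in the window of the neighbouring AT5G10390. The other carriers were 3 H2A genes (AT5G59870, HTA10 and HTA13), the H3.1 genes AT5G65360 and AT1G09200, the H3.3 gene AT4G40040, and the H4 genes AT1G07660 and AT5G59690. The hexamer ACGTCA was present in 10 of the 41 genes, against 7.69% of all promoters, and 7 of these 10 were H2B genes. The nonamer CATCCAACG was found in 0 of the 41 genes and in 0.149% of all promoters. The windows of AT3G45930 and AT3G46320 were identical at 247 of 250 bases and held none of the 3 motifs. Some windows of members overlap another annotated gene. A match is a description of these letters only.

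The libraries held 1012425 to 2185464 reads assigned to genes, and 3 reads in a library corresponded to 1.37 to 2.97 CPM (counts set to equal library totals, with TMM, the trimmed mean of M-values, as scaling). Replicates of a group correlated across genes with Pearson's r from 0.951 to 0.963 on log2 CPM. On the second principal component, replicate 3 of the 4 h group lay at 40.1 and the other replicates of that group at -15.0 and -28.8. The shoot markers RBCS1A and CAB1 were abundant in every library, at 22462 CPM or more and 13958 CPM or more, and the root markers PIN2, LRL3 and EXPA7 lay between 1.98 and 23.6 CPM. FLU itself did not pass the test (log2 fold change 0.41, SE 0.18, adjusted p = 0.124 by edgeR), and both groups carry the mutation. In these bulk libraries fewer cells of a type and less RNA per cell cannot be told apart.

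Histone reads made up 0.696% to 0.771% of all reads in the 0 h libraries and 1.03% to 1.07% in the 4 h libraries. The summed CPM of the 37 genes was 7260 ± 344 (SD, n = 3) at 0 h and 10643 ± 377 (SD, n = 3) at 4 h, a ratio of 1.47, and the groups did not overlap. By class the ratio was 2.54 for the 2 linker histone genes, 1.28 for the 25 replication-dependent genes and 1.31 for the 10 variant genes. The linker gene AT1G06760 alone had means of 884 CPM at 0 h and 2376 CPM at 4 h, a large part of the summed rise. By edgeR's quasi-likelihood test, fitted over the 10622 genes tested with Benjamini-Hochberg adjustment at 0.05, 9 of the 37 histone genes were higher and 2 were lower after 4 h of darkness. Over all genes 8.37% were higher and 8.18% were lower. The median log2 fold change was -0.06 over all genes tested and 0.25 over the 36 histone genes that reached 5 reads in a library of each group. The exception was GAMMA-H2AX, which reached it in the 4 h group alone. The CPM ranges of the groups did not overlap in 19 of the 37 genes, against 32.3% of all genes tested. The members that passed the test were 1 linker histone gene, 5 higher and 2 lower of 25 replication-dependent genes, and 3 higher and 0 lower of 10 variant genes.

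**Figure D1:**
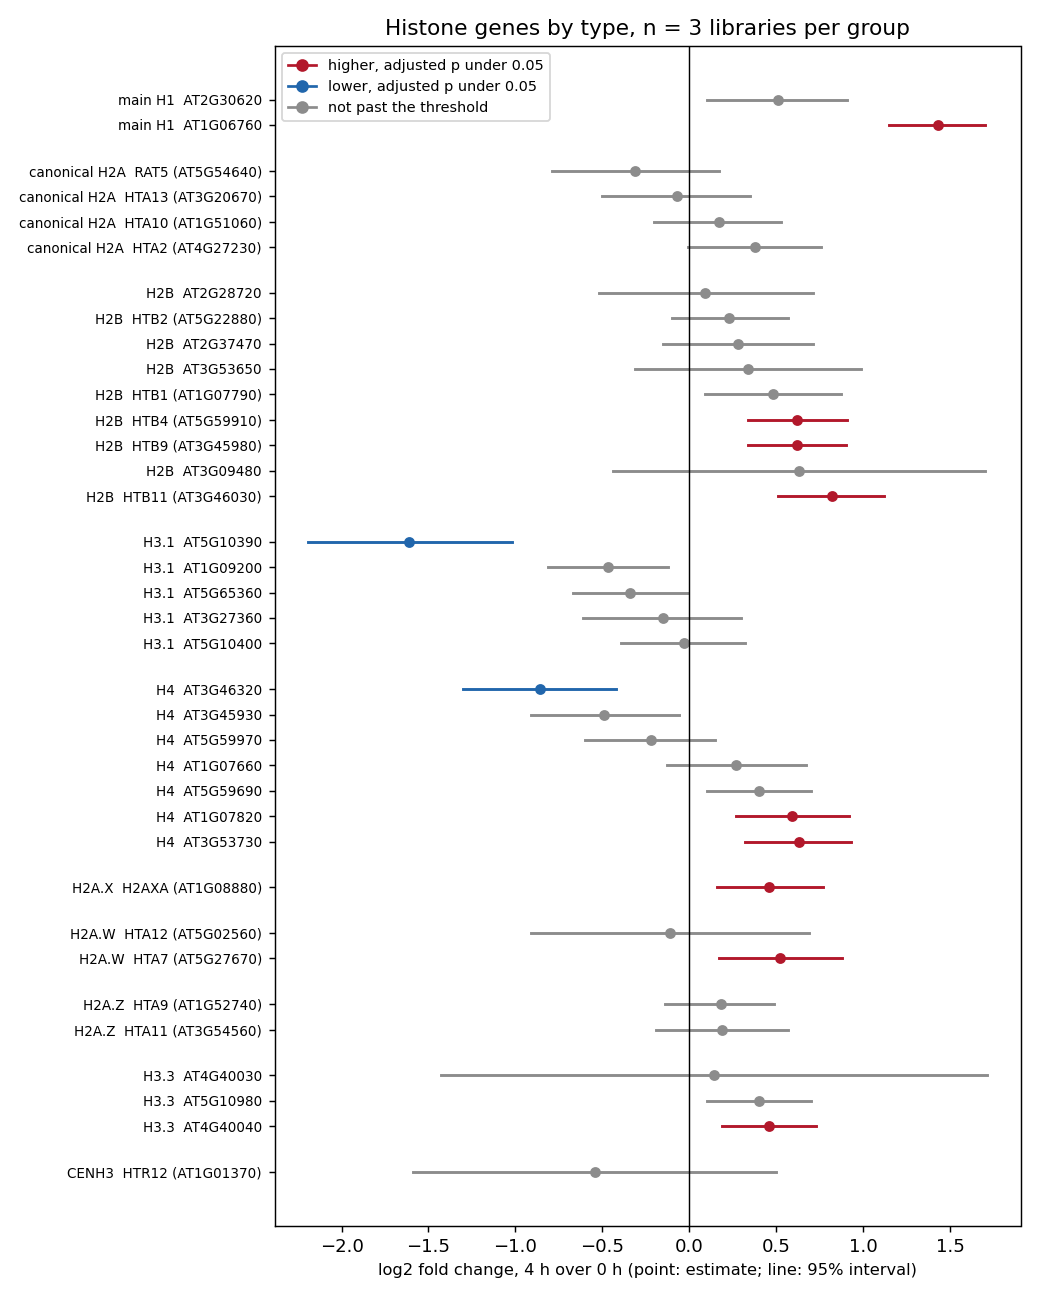
Log2 fold change of histone genes, 4 h over 0 h of darkness, grouped by histone type, from edgeR. Points are estimates and lines their 95% intervals (n = 3 libraries per group). GAMMA-H2AX is left out because its 0 h libraries held 3 reads in all. The 9 H2B points lie above 0 and the 5 H3.1 points lie below 0.

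The main H1 gene AT1G06760 (chr1:2076504-2077767, minus strand, TAIR10.1) showed the largest rise of the 11 genes that passed the test. It was read at 849, 898 and 904 CPM at 0 h and at 2363, 2469 and 2295 CPM at 4 h. Every 4 h library was far above every 0 h library, with little spread within either group. The means were 884 ± 30.1 and 2376 ± 87.6 CPM (SD, n = 3), a log2 fold change of 1.43 (SE 0.13, 95% interval 1.15 to 1.70; 2.69-fold; edgeR adjusted p = 1.47e-08). A pair of genes annotated on the opposite strand overlap it, neither of which has a row in the table. The other main H1 gene, AT2G30620, was read at 111, 80.0 and 145 CPM at 0 h and at 190.2, 133 and 146 CPM at 4 h. These groups overlapped, and the gene did not pass the test (log2 fold change 0.51, SE 0.20, edgeR adjusted p = 0.0795). It passed in 3 of the 17 alternatives, and with 1 library left out its log2 fold change ran from 0.33, without replicate 2 of the 0 h group or replicate 1 of the 4 h group (adjusted p = 0.34 for the latter), to 0.74 without replicate 3 of the 0 h group (adjusted p = 0.0161). AT1G06760 supplied 10248 of the reads of the 4 h libraries and AT2G30620 supplied 713, so the summed H1 level, 996 ± 46.9 CPM at 0 h and 2532 ± 82.2 CPM at 4 h (SD, n = 3), was set mainly by AT1G06760.

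Among the replication-dependent histones, 3 of the 9 H2B genes were higher at 4 h and 0 were lower, against 8.37% and 8.18% of all genes. H2B pairs with H2A in the nucleosome, and the 9 H2B genes analysed are all single-exon genes that encode 9 different proteins. The log2 fold changes of the 9 ran from 0.09 to 0.82 with a median of 0.48, and that of AT2G28720 was -0.22 without replicate 1 of the 4 h group. HTB11 was read at 294, 289.8 and 274 CPM at 0 h and at 471, 578 and 465 CPM at 4 h. The 4 h libraries were all above the 0 h libraries (log2 fold change 0.82, SE 0.15; 1.76-fold; edgeR adjusted p = 0.00028). HTB4 (AT5G59910) had 526, 510.3 and 549 CPM at 0 h and 802, 872 and 770.2 CPM at 4 h. HTB9 (AT3G45980) had 512, 474 and 539 CPM at 0 h and 801, 765 and 778 CPM at 4 h. These H2B genes had the highest read counts of the 9, their groups were well apart, and both had a log2 fold change of 0.62 (SE 0.14; 1.54-fold; edgeR adjusted p = 0.00198 for HTB4 and 0.00213 for HTB9).

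The other 6 H2B genes did not pass the test. The groups of HTB1 (AT1G07790) did not overlap, with 61.1, 52.8 and 64.7 CPM at 0 h and 75.1, 100.2 and 75.1 CPM at 4 h, and its adjusted p was 0.083 by edgeR. HTB2 (AT5G22880) and AT3G53650 likewise did not overlap between groups, at log2 fold changes of 0.23 and 0.34. AT2G37470, AT2G28720 and AT3G09480 overlapped between groups, the last with 22 reads at 0 h and 30 reads at 4 h in all. The summed H2B level was 1602 ± 68.2 CPM at 0 h and 2444 ± 145 CPM at 4 h (SD, n = 3), a ratio of 1.53 with no overlap. The hexamer lay in the windows of HTB9 and HTB11 but not of HTB4, and in 5 of the 6 H2B genes that did not pass. Windows of HTB4 and AT3G09480, which lack the hexamer, overlap a neighbouring annotated gene, as does that of HTB1, which holds it.

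The 4 canonical H2A genes, whose proteins pair with H2B, gave no call, 0 of 4 by edgeR, DESeq2 or limma-voom and 0 of 4 at an unadjusted p of 0.05. Over all genes edgeR called 8.37% higher and 8.18% lower, so 0 of 4 is not read as a result about this type. HTA2 (AT4G27230) had the smallest p of the 4, with 83.8, 82.6 and 66.1 CPM at 0 h and 82.4, 122 and 102 CPM at 4 h. The groups overlapped in replicate 1 of the 4 h group (log2 fold change 0.38, 95% interval -0.01 to 0.76; edgeR adjusted p = 0.183). HTA10 (AT1G51060), HTA13 (AT3G20670) and RAT5 (AT5G54640) had log2 fold changes of 0.17, -0.07 and -0.31, with adjusted p from 0.414 to 0.855. The summed canonical H2A level was 340 ± 7.85 CPM at 0 h and 372 ± 75.0 CPM at 4 h (SD, n = 3), and the groups overlapped. Replicate 2 of the 4 h group was the highest of the 6 libraries at 455 CPM and replicate 1 of that group the lowest at 309 CPM. A gene on the opposite strand that has a row in the table overlaps HTA13, and whether counting used strand is not given in the sources used here.

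H3.1, the canonical H3, is laid down at the replication fork. The 5 H3.1 genes are single-exon genes that encode 1 identical protein, and the 5 log2 fold changes lay between -1.61 and -0.03 with a median of -0.34. AT5G10390 (chr5:3268847-3269594, minus strand, TAIR10.1) was read at 50.1, 40.5 and 44.7 CPM at 0 h and at 8.19, 19.0 and 20.8 CPM at 4 h. All 4 h libraries were below all 0 h libraries, and replicate 1 of the 4 h group was the lowest with 18 reads. It fell by 1.61 on the log2 scale (SE 0.29, 95% interval -2.19 to -1.02; 3.04-fold lower; edgeR adjusted p = 0.00025).

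The adjacent H3.1 gene AT5G10400 (chr5:3270172-3270957) lies 577 bases away on the same strand. It was read at 112, 104 and 125 CPM at 0 h and at 119, 120.1 and 92.9 CPM at 4 h. The groups overlapped throughout (log2 fold change -0.03, 95% interval -0.39 to 0.32; edgeR adjusted p = 0.926). The intervals of these neighbours did not overlap, although the difference between them was not itself tested. The last 300 transcript bases of each gene were sought in the whole transcripts of the other members, and the longest shared run was 20 bases for AT5G10390 and 28 bases for AT5G10400.

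AT1G09200, with the highest read count of the H3.1 genes, had 206, 224 and 215 CPM at 0 h and 122, 185 and 163 CPM at 4 h. The groups did not overlap, and the gene missed the threshold (log2 fold change -0.47, SE 0.17, edgeR adjusted p = 0.0561). It passed in 7 of the 17 alternatives, with an adjusted p of 0.0423 without replicate 2 of the 4 h group. AT5G65360 had 187, 195 and 191 CPM at 0 h and 139, 175 and 139 CPM at 4 h, again without overlap (log2 fold change -0.34, edgeR adjusted p = 0.154). AT3G27360 overlapped between groups (log2 fold change -0.15, edgeR adjusted p = 0.701). The summed H3.1 level was 618 ± 15.7 CPM at 0 h and 482 ± 64.3 CPM at 4 h (SD, n = 3), a ratio of 0.78 with no overlap. AT5G10390 supplied 6.74% to 8.06% of the H3.1 reads at 0 h and 1.88% to 4.55% at 4 h.

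H4 pairs with H3 and has no variants among these genes: the 8 H4 genes of the list encode 1 identical protein. Of the 7 analysed, 2 rose and 1 fell, against 8.37% and 8.18% of all genes tested. AT3G53730 had 256, 262 and 292 CPM at 0 h and 416, 452 and 383 CPM at 4 h. AT1G07820 had 180.4, 151 and 197 CPM at 0 h and 279, 279.9 and 234 CPM at 4 h. Both were higher in every 4 h library, with log2 fold changes of 0.63 (SE 0.15; 1.54-fold; edgeR adjusted p = 0.00343) and 0.59 (SE 0.16; 1.51-fold; edgeR adjusted p = 0.0101).

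AT3G46320 (chr3:17019785-17020428, minus strand, TAIR10.1) went the other way, with 66.0, 49.7 and 72.3 CPM at 0 h and 36.9, 36.1 and 28.7 CPM at 4 h. The groups did not overlap, and the gene fell by 0.86 on the log2 scale (SE 0.21, 95% interval -1.30 to -0.42; 1.82-fold lower; edgeR adjusted p = 0.00546). Its close promoter copy AT3G45930 had 61.1, 50.3 and 64.7 CPM at 0 h and 36.4, 48.8 and 41.5 CPM at 4 h. This gene was lower in every 4 h library, by a smaller margin that did not pass the test (log2 fold change -0.49, SE 0.21, edgeR adjusted p = 0.112). The last 300 transcript bases of AT3G46320 shared a run of at most 26 bases with the AT3G45930 transcript.

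AT5G59690, with the highest read count of the H4 genes at 0 h, had 319, 286 and 317 CPM at 0 h and 451, 396 and 367 CPM at 4 h. The groups did not overlap, with a log2 fold change of 0.40 and an edgeR adjusted p of 0.0635. It passed by DESeq2 (adjusted p = 0.0407) and limma-voom (0.0482) and in none of the other 15 alternatives. AT1G07660 and AT5G59970 overlapped between groups, at log2 fold changes of 0.27 and -0.22. A run of 137 of the last 300 bases of AT1G07660 recurs upstream in the AT1G07820 transcript, so reads from that run match both genes. Between the 3′ ends of this pair the longest shared run was 23 bases. AT3G46320 supplied 5.32% to 6.41% of the H4 reads at 0 h and 2.37% to 2.67% at 4 h, and AT3G53730 supplied 24.1% to 28.0% and 30.1% to 33%. The summed H4 level was 1041 ± 97.6 CPM at 0 h and 1322 ± 95.3 CPM at 4 h (SD, n = 3), a ratio of 1.27 with no overlap.

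**Figure D2:**
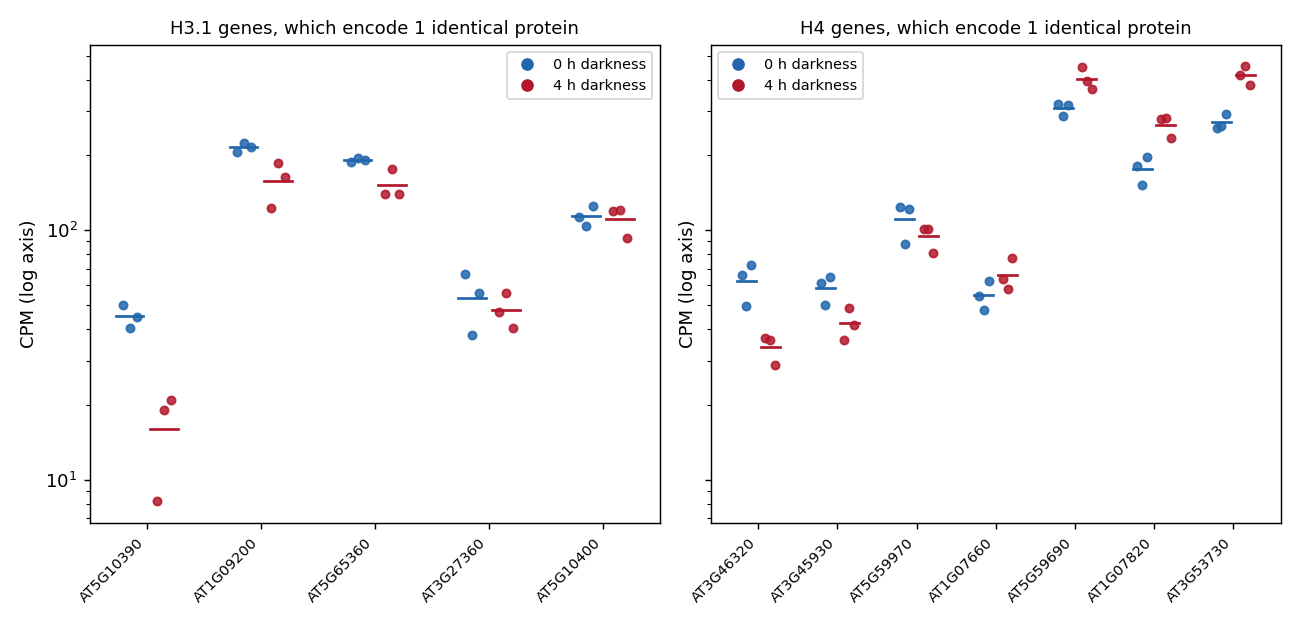
CPM (log axis) of the 5 H3.1 genes and of the 7 H4 genes analysed, 0 h in blue and 4 h in red. Points are libraries and bars group means (n = 3). AT5G10390 and AT3G46320 are below their 0 h libraries in all 3 libraries at 4 h, AT5G10400 overlaps between groups, and AT1G07820 and AT3G53730 are above. Among genes that did not pass the test, AT1G09200, AT5G65360 and AT3G45930 are also below without overlap, and AT5G59690 is above without overlap.

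Variant histones were analysed apart. Of 10 variant genes, 3 were higher and 0 were lower by edgeR, against 8.37% higher and 8.18% lower over all genes tested. Over the 9 that reached 5 reads in a library of each group the median log2 fold change was 0.19. At an unadjusted p of 0.05 the count of lower variant genes was likewise 0, and DESeq2 and limma-voom gave 0 lower variant genes. Without replicate 1 of the 4 h group 1 of the 10 was higher. The H3.3 genes gave the highest counts of any variant type. H3.3 replaces H3.1 in a manner independent of replication, and the 3 H3.3 genes encode 1 identical protein from genes with introns.

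AT4G40040 (chr4:18557149-18558945, minus strand, TAIR10.1) was read at 1178, 1093 and 1175 CPM at 0 h and at 1546, 1599 and 1605 CPM at 4 h. The groups were separate and tight (log2 fold change 0.46, SE 0.13, 95% interval 0.19 to 0.73; 1.38-fold; edgeR adjusted p = 0.0146). AT5G10980 had 724, 602 and 526 CPM at 0 h and 831, 842 and 771 CPM at 4 h. These groups did not overlap either, and the gene missed the threshold (log2 fold change 0.40, SE 0.15, edgeR adjusted p = 0.0584). It passed in 5 of the 17 alternatives, with an adjusted p of 0.0362 without replicate 1 of the 0 h group. The third gene, AT4G40030, lies 42 bases from AT4G40040 on the same strand and was close to the lower read limit, with 6, 4 and 6 reads at 0 h and 2, 10 and 2 reads at 4 h.

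Reads of H3.1 and H3.3 were set against each other in each library. H3.1 supplied 24.6% (exact 95% binomial interval 23.3% to 26.0%), 26.2% (24.9% to 27.5%) and 27.0% (25.6% to 28.6%) of these H3 reads at 0 h. At 4 h the H3.1 share was 15.5% (14.6% to 16.4%), 18.5% (17.2% to 19.8%) and 16.1% (14.8% to 17.5%). Each 4 h library was below each 0 h library, and the intervals, which cover counting error only, did not overlap between groups. The intervals treat each read as a separate molecule, so amplification copies in the counts would make them too narrow. The summed H3.3 level was 1769 ± 118 CPM at 0 h and 2402 ± 41.4 CPM at 4 h (SD, n = 3), while that of H3.1 was lower at 4 h, as given above. These sums and shares are descriptions and were not tested.

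**Figure D3:**
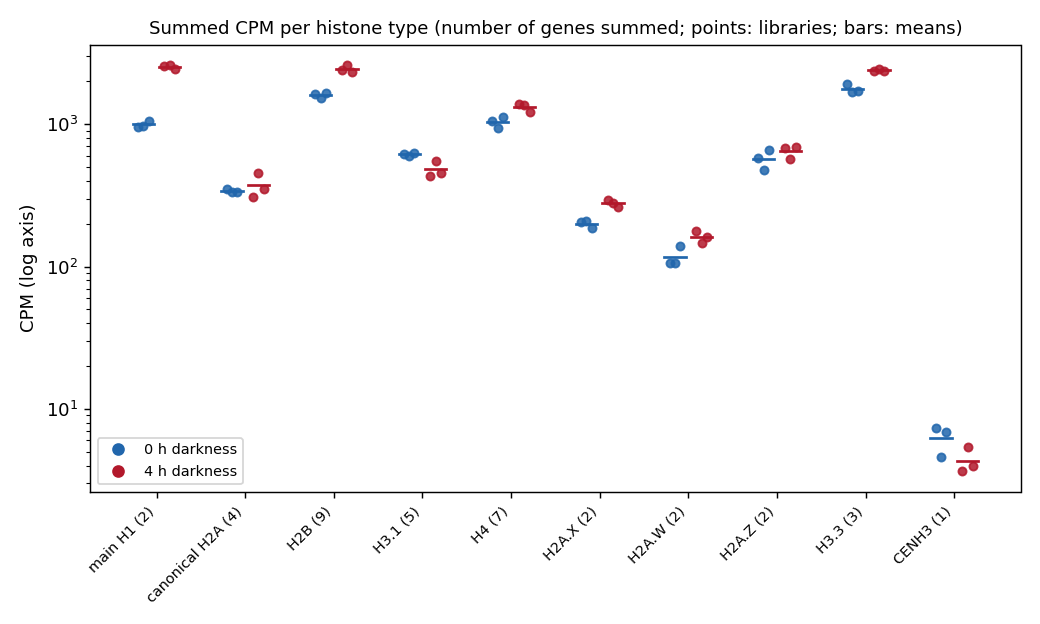
Summed CPM (log axis) of each histone type, with the number of genes summed, 0 h in blue and 4 h in red. Points are libraries and bars group means (n = 3). H1, H2B, H4, H2A.X, H2A.W and H3.3 are higher at 4 h and H3.1 is lower, each without overlap, while canonical H2A, H2A.Z and CENH3 overlap.

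Of the 6 H2A variant genes analysed, 2 passed the test as higher, against 8.37% of all genes tested. H2AXA (AT1G08880), an H2A.X gene, had 204, 208 and 187 CPM at 0 h and 289, 275 and 261 CPM at 4 h. It was higher in every 4 h library (log2 fold change 0.46, SE 0.15; 1.38-fold; edgeR adjusted p = 0.0318). Its adjusted p was 0.0887 without replicate 1 and 0.0853 without replicate 3 of the 0 h group, and 0.0993 without replicate 1 and 0.078 without replicate 2 of the 4 h group. Over the 17 alternatives it ranged from 0.0187 to 0.0993, and the gene passed in 12. The other H2A.X gene, GAMMA-H2AX (AT1G54690), was the lowest member kept, with 0, 3 and 0 reads at 0 h and 6, 3 and 1 reads at 4 h. Its ratio of scaled reads, 4 h over 0 h, was 3.89 with an exact counting interval of 1.00 to 22.0, which covers counting error only. The groups overlapped, and the gene could enter the test only through the 4 h group, so this ratio is given as a description.

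HTA7 (AT5G27670) encodes H2A.W, a plant variant of heterochromatin. It had 97.2, 94.4 and 129 CPM at 0 h and 165, 135 and 157 CPM at 4 h. The highest 0 h library, replicate 3, came close to the lowest 4 h library, replicate 2 (log2 fold change 0.52, SE 0.17; 1.44-fold; edgeR adjusted p = 0.0376). Its adjusted p was 0.163 without replicate 1 and 0.0897 without replicate 2 of the 0 h group, and 0.127 without replicate 1 and 0.0877 without replicate 3 of the 4 h group. Over the 17 alternatives it ranged from 0.0134 to 0.163, and the gene passed in 11. HTA12 (AT5G02560), the other H2A.W gene analysed, had 53 reads at 0 h and 44 reads at 4 h, with overlapping groups.

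H2A.Z was represented by HTA9 (AT1G52740) and HTA11 (AT3G54560), and neither passed the test. HTA9 had 488, 390.3 and 547 CPM at 0 h and 548, 475 and 586 CPM at 4 h. The groups overlapped (log2 fold change 0.18, 95% interval -0.14 to 0.49; edgeR adjusted p = 0.485), as did those of HTA11 (log2 fold change 0.19, 95% interval -0.19 to 0.57; edgeR adjusted p = 0.542). The centromeric variant HTR12 (AT1G01370) was read at 7.34, 4.62 and 6.88 CPM at 0 h and at 3.64, 5.42 and 3.96 CPM at 4 h. With 31 and 18 reads in all, the groups overlapped and no difference was detectable at this depth (log2 fold change -0.54, 95% interval -1.59 to 0.50; edgeR adjusted p = 0.524).

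**Figure D4:**
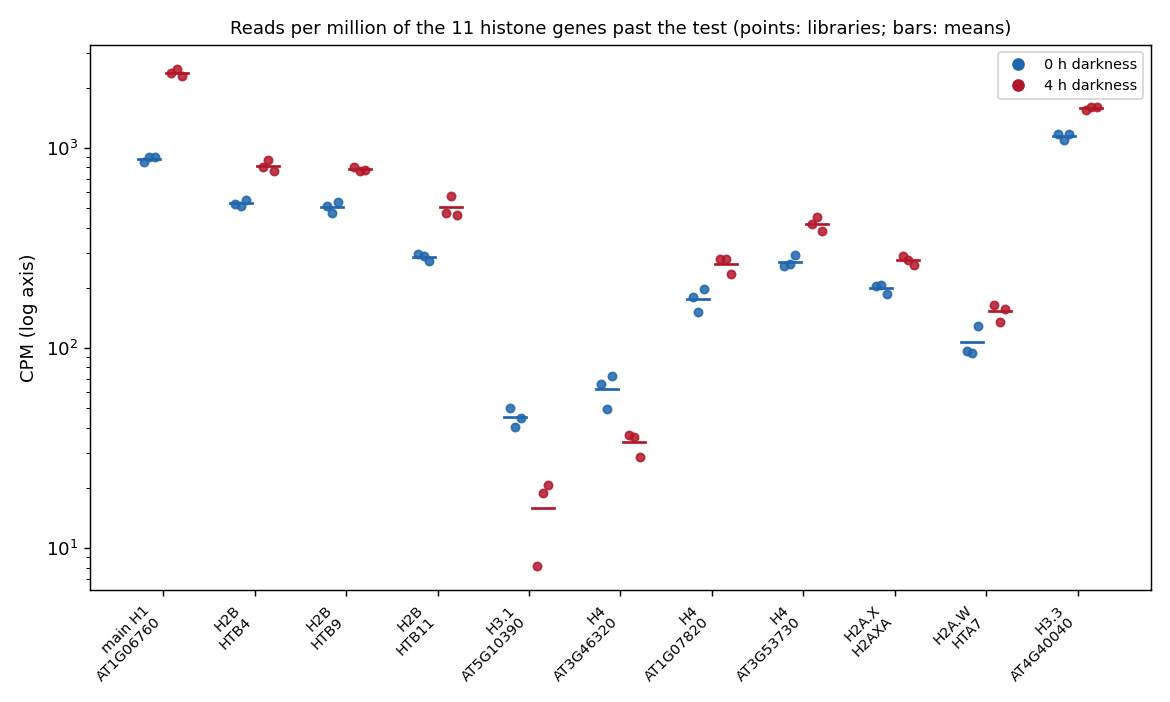
CPM (log axis) of the 11 histone genes that passed the test, 0 h in blue and 4 h in red. Points are libraries and bars group means (n = 3). The groups do not overlap in any of the 11 genes. AT5G10390 and AT3G46320 are lower at 4 h and the other 9 are higher.

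Of the 11 genes that passed, 9 passed in every one of the 17 alternatives (other tools, scalings and filters, or 1 library left out), and the other 2 were H2AXA and HTA7. Without replicate 3 of the 4 h group, which stood apart on the second principal component, 10 of the 11 genes passed, and the gene lost was HTA7, with an adjusted p of 0.0877.

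Genes that act with histones were counted beside them. Histone chaperones carry histones to and from DNA. Of 13 chaperone genes listed 8 had a row in the table, 0 of the 8 passed the test by edgeR, and their median log2 fold change was -0.10. Over all genes 8.37% were higher and 8.18% were lower, so 0 of 8 is not read as a result about chaperones. The unadjusted p was under 0.05 for 1 of them, the nucleosome assembly gene NRP2, and DESeq2 and limma-voom called 0. NRP2 had 10.4, 7.18 and 7.57 CPM at 0 h and 5.92, 2.71 and 0 CPM at 4 h (log2 fold change -1.25, SE 0.56, edgeR adjusted p = 0.134), and without replicate 1 of the 4 h group its adjusted p was 0.0314 (1 of the 8 chaperones). SPT16, a subunit of the FACT complex that moves nucleosomes out of the way of polymerases, had 97.8, 90.3 and 95.6 CPM at 0 h and 107, 108 and 133 CPM at 4 h. It did not overlap between groups and did not pass (log2 fold change 0.29, edgeR adjusted p = 0.269). Its partner SSRP1 and the assembly factor NAP1;1 had log2 fold changes of 0.33 and -0.18 (edgeR adjusted p = 0.385 and 0.584).

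S phase is when DNA is copied and replication-dependent histones are mainly made. Members were put in that class by histone type, and their expression in S phase was not tested. Of 14 S phase genes listed, 4 had a row and 3 were tested, all subunits of the MCM helicase that opens DNA at the replication fork. MCM4 alone of the 3 reached 5 reads in libraries of both groups. It had 13.5, 19.5 and 10.3 CPM at 0 h and 3.64, 6.32 and 6.92 CPM at 4 h. Its groups did not overlap (log2 fold change -1.46, SE 0.41, edgeR adjusted p = 0.0133). MCM3 and MCM5 reached 5 reads in 0 h libraries alone, so they could enter the test only through the group in which they were high, and their values are given as a description. MCM3 had 36 reads at 0 h and 8 reads at 4 h. MCM5 had 24 reads at 0 h and 2 reads at 4 h, a ratio of scaled reads, 0 h over 4 h, of 10.3 with an exact counting interval of 2.55 to 89.7.

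These S phase values rested on few reads. By DESeq2 the log2 fold change of MCM4 was -1.43 with an adjusted p of 0.0595, and those of MCM3 and MCM5 were -1.92 and -3.17 with no adjusted p given. The adjusted p of MCM4 by edgeR was 0.0997 without replicate 2 of the 0 h group and 0.104 without replicate 1 of the 4 h group. With all libraries thinned to the smallest, it was 0.0652. Of 11 genes of the G2 and M phases 3 had a row and 2 were tested. The mitotic kinase CDKB2;1 had 6.73, 7.69 and 8.95 CPM at 0 h and 9.10, 9.03 and 6.92 CPM at 4 h, and CDC20.1, an activator of the anaphase-promoting complex, had 20.8, 25.6 and 26.8 CPM at 0 h and 11.4, 19.9 and 23.7 CPM at 4 h. Both overlapped between groups (log2 fold changes 0.13 and -0.49, edgeR adjusted p = 0.871 and 0.293). At an unadjusted p of 0.05, and with DESeq2 and limma-voom, the count of G2 and M phase genes called was 0. With 2 genes tested, and 8.37% of all genes higher and 8.18% lower by edgeR, this count is not read as a result.

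Of 8 markers of tissues in a seedling, 1 passed the test, against 8.37% higher and 8.18% lower over all genes. It was the Rubisco activase gene RCA, which was lower at 4 h (log2 fold change -0.61, edgeR adjusted p = 0.00222). The other 7 overlapped between groups and did not pass. Among them the log2 fold changes were -0.78, -0.71 and -0.62 for the root markers PIN2, LRL3 and EXPA7 (edgeR adjusted p from 0.152 to 0.448). They were 0.42 for the shoot meristem marker STM, 0.25 for the epidermal marker GL2, 0.10 for CAB1 and -0.01 for RBCS1A (edgeR adjusted p from 0.499 to 0.98). The part of tissue makeup or of the number of dividing cells in the histone values was not tested.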

How the data were processed

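RNA of whole *flu* 1-1 seedlings was profiled in 6 bulk MARS-seq libraries (Illumina NextSeq), 3 after 0 h and 3 after 4 h of darkness, grouped by their titles. The study's methods give trimming with cutadapt, mapping to Araport 11 with STAR and counting by HTSeq. The processing notes also name bcl2fastq 2.17.1.14, cutadapt 1.8.3, DESeq and DESeq2. The authors deposited whole-number counts, made without a filter on molecular identifiers, so that amplification copies may be included. The authors also deposited a size-factor-scaled signal and regularised log2 values, neither of which was tested. The histone members and the other gene lists were chosen with earlier results of these data known.

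The 10622 genes that reached 5 reads in any library were tested with edgeR 4.0.16 in R 4.3.3 (quasi-likelihood test, TMM scaling, group as the only term), with Benjamini-Hochberg adjustment over all genes tested. Values of all libraries are given for each histone gene past the threshold of 0.05 and for the gene with the smallest p of each type. Beyond these, genes were named after their values were seen. Reads were also summed per histone type. Intervals of shares are exact binomial (Clopper-Pearson). For genes with 1 to 3 reads on either side, a ratio of scaled reads with its exact counting interval is given. Both kinds of interval treat each read as a separate molecule and would be too narrow where amplification copies are included. No replicate pair agreed within sampling noise (chi-square per degree of freedom 3.17 to 6.20). The procedure was tested on simulated counts.

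Symbols, positions and promoters came from the RefSeq annotation of TAIR10.1, in which all 41 identifiers matched. Motifs were sought on both strands in the 250 bases before each annotated start, and the last 300 bases of each member's transcript were sought in the whole transcripts of the other members. Alternatives were DESeq2 1.42.0, limma-voom (limma 3.58.1), relative log expression, upper quartile and library-size scaling, filterByExpr or no filter, thinning to the smallest library, omission of each library in turn and a replicate block. The deposited size factors and a filter of 5 reads in at least 3 libraries were added after seeing the data. Plots were made in Python 3.11.15 with matplotlib 3.10.9.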

Additional observations from a re-analysis of the deposited data

How the results depend on the processing

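Of the 11 histone calls, all 11 remained in 9 of the 17 alternatives (DESeq2, limma-voom, relative log expression scaling, library-size scaling, filterByExpr, no filter, the replicate block, and, chosen after seeing the data, the deposited size factors and 5 reads in at least 3 libraries). Upper quartile scaling, which moved the median log2 fold change of all genes by -0.08, left 9, and thinning left 10. The number of higher histone genes was 7 to 9 and of lower ones 2 to 3 with 1 library left out. Same-numbered libraries correlated in their deviations at 0.021 to 0.055, and differently numbered ones at -0.032 to 0.013. Whether the numbers pair the libraries cannot be told from values this small. DESeq2 gave 11 higher histone genes (AT5G10980 and AT5G59690 gained), and limma-voom 12 higher and 3 lower (AT2G30620 and AT1G09200 gained as well). With the replicate block 11 histone genes were higher and 3 lower, the genes gained being AT2G30620, AT5G10980 and AT1G09200, and the chaperone NRP2 passed at a log2 fold change of -1.44. Over all genes the number lower was 543 by DESeq2 and 569 to 723 with 1 library left out. Signs changed only for genes that did not pass. Thinning gave log2 fold changes of -0.09 for AT2G28720, 0.24 for AT1G01370 (its summed ratio was 1.20) and -0.09 for CDKB2;1 (AT1G76540), and limma-voom gave -0.50 for AT4G40030. With 1 library left out, log2 fold changes ranged from -0.02 to 0.36 for AT1G51060, -0.48 to 0.18 for AT5G02560, -0.32 to 0.06 for AT3G20670, -0.22 to 0.32 for AT2G28720, -0.34 to 0.04 for AT3G27360, -1.26 to 0.79 for AT4G40030, -0.09 to 0.07 for AT5G10400, -0.25 to 0.06 for NRP1 (AT1G74560), -0.18 to 0.03 for NAP1;2 (AT2G19480) and -1.10 to 0.22 for NAP1;3 (AT5G56950). Where a call or sign changed, the cause was not tested. Depth limits the genes with few reads, among them GAMMA-H2AX, AT4G40030, HTR12 and the MCM genes.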
